A study of Mus musculus with 4 samples.

Results

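White adipose tissue of female mice kept on a high fat diet into the F2 generation was compared with white adipose tissue of female mice on normal chow. The comparison held the 11093 genes with a probe detected on the F2 array, the chow array or both, out of 11384 genes with a probe detected on any of the 4 arrays of the series. A probe counted as detected where its detection p, set against the array's negative control beads, was under 0.01. Every mouse was of the C57BL/6 strain and 9 months old. The F2 pool came from second-generation animals on high fat feed (60% of kcal as fat), given for 9 months by the labels, and the chow pool from animals on normal chow for the same time. The F2 array carried a mix of 4 RNA samples and the chow array a mix of 3. The labels do not name the fat depot, nor say that each mixed sample was a separate animal, and they give no diet history of the parents beyond the generation. Arrays of F0 and F1 high fat pools, each a mix of 4 samples, were set beside the F2 array where they bear on a result.

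White adipocytes store fatty acids as triglyceride in a single large droplet, make some of those fatty acids from glucose and acetate, release them by lipolysis and secrete hormones such as leptin and adiponectin. The tissue also holds macrophages, lymphocytes, mast cells, blood vessels, fibroblast-like progenitors and, in visceral depots, a mesothelial cover. In mice, long feeding of a fat-rich diet is known for large adipocytes, recruitment of macrophages that take up lipid, and low synthesis of fatty acids in the adipocyte.

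With 1 pooled array on each side there is no replicate error, so no p-value can be given and every difference below describes these 2 pools by its size. Differences are F2 minus chow on the scale of the normalised log2 signal, where 1 is a doubling. A gene is called higher or lower here where it differed by at least 2-fold and its probe was detected on the brighter array. Where the dimmer array did not detect the probe, the fold is a lower bound set against that array's lowest detected signal, and is written as "at least". A listed gene counts as measured where it is among the genes compared. The gauge the arrays offer is the agreement of different probes to 1 gene. Over 3309 genes with several probes detected on both arrays, their differences had a pooled SD of 0.324 within a gene. Of the 467 such genes at least 2-fold apart, 438 had all probes on the same side of 0. The gauge covers only the disagreement of probes within the same 2 arrays. It leaves out error that all probes of an array share, and the spread between animals. Each gene is given by its brightest probe, so a fold or a bound holds for that probe. The value averaged over the detected probes of a gene stands beside it where that ends a call. Genes described as level or under 2-fold were mostly named as the list members nearest to no difference, and do not stand for the rest of their list.

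On the F2 array 18532 of the 45281 probes were detected (40.9%), and on the chow array 18011 (39.8%). Both arrays detected 9495 of the genes, the F2 array alone 904 and the chow array alone 694. Relative to chow, 1064 genes were higher on F2, which is 9.59% of the genes compared, and 938 were lower, which is 8.46%. Together they make 18.0%. Counts of called genes in the lists below are to be read against these shares. The middle of all differences was at -0.10, the lower and upper quartiles were at -0.48 and 0.34, and the extremes lay at -4.91 and 6.85. The tail was longer on the higher side: 377 genes were at least 4-fold higher and 167 at least 4-fold lower. Over the same genes, the F0 array had 749 genes higher (6.75%) and 756 lower (6.82%) than chow, and the F1 array 835 higher (7.53%) and 718 lower (6.47%).

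**Figure D1:**
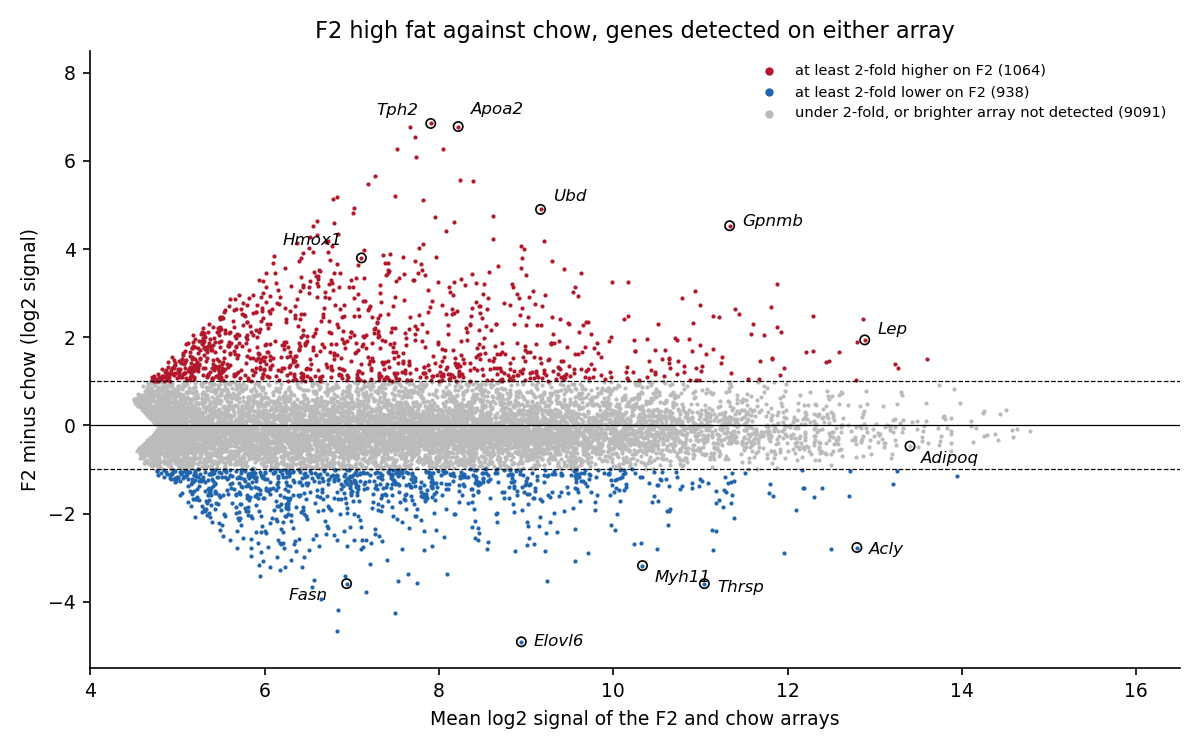
Each point is 1 of the 11093 genes, with the mean log2 signal of the F2 and chow arrays on the horizontal axis and F2 minus chow on the vertical axis (log2); dashed lines mark 2-fold. The 1064 red genes are higher on F2 and the 938 blue genes lower; Gpnmb and Lep are among the bright genes on the higher side, Acly, Thrsp and Elovl6 on the lower side, and Adipoq lies between the lines.

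Several adipocyte markers were bright on both arrays, as the tissue label requires. Of 22 listed white adipocyte markers, 19 had a probe on the array under a single symbol, and both arrays detected each of these. Their median difference was -0.48, against -0.10 for all genes; 1 was higher, 3 were lower and 15 were under 2-fold. Adiponectin (Adipoq) had a log2 signal of 13.17 on F2 and 13.64 on chow, and the lipoprotein lipase gene Lpl had 14.25 on F2 and 14.57 on chow. Pnpla2, the first lipase of triglyceride breakdown, had 13.36 on F2 and 13.72 on chow, and the adipogenic receptor Pparg 10.68 on F2 and 11.24 on chow. Adipoq, Lpl, Pnpla2 and Pparg were thus bright on both arrays and under 2-fold apart. Other markers lay further below chow. Resistin (Retn) was 3.50-fold lower, at 6.80 on chow and near the detection floor on F2 (4.99), and Slc2a4 was 3.32-fold lower. The droplet coat Plin1 was under 2-fold (8.31 on F2, 9.24 on chow). The marker furthest below chow was Acvr1c, an activin-type receptor of adipocytes, at 7.46 on F2 and 9.34 on chow. Leptin (Lep), which the tissue secretes in proportion to its fat, stood at 13.86 on F2 and 11.91 on chow, 3.85-fold higher, with differences from chow of 2.60 on F0, 2.61 on F1 and 1.94 on F2. The probes of Fabp4 (5.68 on F2, 5.62 on chow) and Cd36 (5.30 on F2, 5.10 on chow), both abundant fat cell genes, lay near the detection floor on both arrays, so they say little about these genes.

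Other secreted factors of adipose tissue went both ways. Nrg4, a growth factor released by fat, was at 7.74 on F2 and 10.44 on chow, and angiotensinogen (Agt) at 6.06 on F2 and 8.57 on chow; these were 6.50-fold and 5.68-fold lower. Angptl8, an insulin-responsive inhibitor of lipoprotein lipase, was 3.18-fold lower, by a difference of -1.67. Lcn2, a siderophore-binding protein made by fat cells and myeloid cells, was 2.32-fold higher (8.18 on F2, 6.97 on chow). Retinol-binding protein Rbp4 (7.93 on F2, 8.70 on chow), chemerin (Rarres2, 12.48 on F2, 12.24 on chow) and Nampt (6.89 on F2, 7.27 on chow) were under 2-fold. A set of genes known from mice to mark the capacity of fat pads to expand stood apart from chow in both directions. Sfrp5, a secreted Wnt antagonist, was detected on F2 at 8.77 and not on chow (4.63), at least 15.5-fold higher, and Mest, an imprinted gene whose level follows adipocyte enlargement in mice, was 9.56-fold higher (9.80 on F2, 6.54 on chow). For both genes the differences of the earlier generations were larger: Sfrp5 had 5.85 on F0, 5.18 on F1 and 4.15 on F2, and Mest 4.54 on F0, 4.22 on F1 and 3.26 on F2. The receptor tyrosine kinase Ror2, which binds Wnt5a, was 10.6-fold lower (5.22 on F2, 8.63 on chow), and Wnt5a itself 2.13-fold lower (6.59 on F2, 7.68 on chow), or a difference of -0.97 averaged over probes, under 2-fold.

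Fatty acid synthesis was the metabolic list with the lowest median, -1.32 over 21 measured members of 25 listed, with 13 lower and 0 higher. The series of enzymes from citrate to long-chain acyl-CoA can be read step by step. ATP-citrate lyase (Acly), which makes cytosolic acetyl-CoA from citrate, was at 11.41 on F2 and 14.18 on chow, 6.81-fold lower. Acss2, which makes acetyl-CoA from acetate, was at 9.99 on F2 and 12.37 on chow, 5.23-fold lower. The carboxylase Acacb, whose product malonyl-CoA restrains fatty acid import into mitochondria, was 7.19-fold lower (7.45 on F2, 10.29 on chow), while the probe of Acaca was detected on neither array. Further down, the fatty acid synthase Fasn (5.14 on F2, 8.74 on chow) and the elongase Elovl6 (6.49 on F2, 11.40 on chow) were 12.1-fold and 30.0-fold lower. The F2 signal of Fasn lay near the detection floor, which limits its fold. Malic enzyme Me1, a source of NADPH, was at 8.82 on F2 and 10.75 on chow, 3.80-fold lower. Mlxipl, which encodes the glucose-sensing activator ChREBP, was at 7.29 on F2 and 9.61 on chow. Averaged over detected probes, the differences were smaller for Elovl6 (-2.99), Acacb (-1.65) and Acss2 (-1.50). Not all members shared this: the desaturase Scd1 was at 13.57 on F2 and 13.92 on chow, Scd2 at 6.60 on F2 and 6.71 on chow, the liver X receptor Nr1h3 at 10.56 on F2 and 10.76 on chow, and Fads3 at 10.14 on F2 and 9.86 on chow. The list medians were -1.10 on F0, -1.16 on F1 and -1.32 on F2, each against the same chow array.

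Esterification genes were lower on F2. The list of triglyceride assembly and droplet proteins had a median of -0.78 on F2 over 21 measured genes of 24 listed, with 7 lower and 1 higher, where F0 had a median of 0.24 and F1 one of -0.00. Gpat3, which adds the first acyl chain to glycerol phosphate, was 4.03-fold lower (7.17 on F2, 9.18 on chow), and Gpam, which does the same at mitochondria, was not detected on F2 (4.74) and was at 6.60 on chow, at least 3.55-fold lower. The last step was lower too, with Dgat1 at 7.98 on F2 and 9.62 on chow (3.11-fold) and Dgat2 at 12.73 on F2 and 13.78 on chow (2.06-fold). With median scaling Dgat2 differed by -0.85, and in the authors' value table by -0.93, both under 2-fold. Pck1, which supplies glycerol phosphate from lactate and amino acids, was 4.18-fold lower (5.22 on F2, 7.28 on chow), and the phosphatidate phosphatase Lpin1 2.28-fold lower (9.48 on F2, 10.67 on chow). Dgat1 had differences from chow of -0.48 on F0, -0.73 on F1 and -1.64 on F2, and Lpin1 of -0.11 on F0, -0.57 on F1 and -1.19 on F2. The droplet coat Plin2, which is not restricted to adipocytes, was the exception at 11.09 on F2 and 9.41 on chow, 3.22-fold higher. Seipin (Bscl2, 12.89 on F2, 12.86 on chow), Plin3 (8.27 on F2, 8.17 on chow) and Cidec (12.94 on F2, 13.15 on chow) were close on both arrays.

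**Figure D2:**
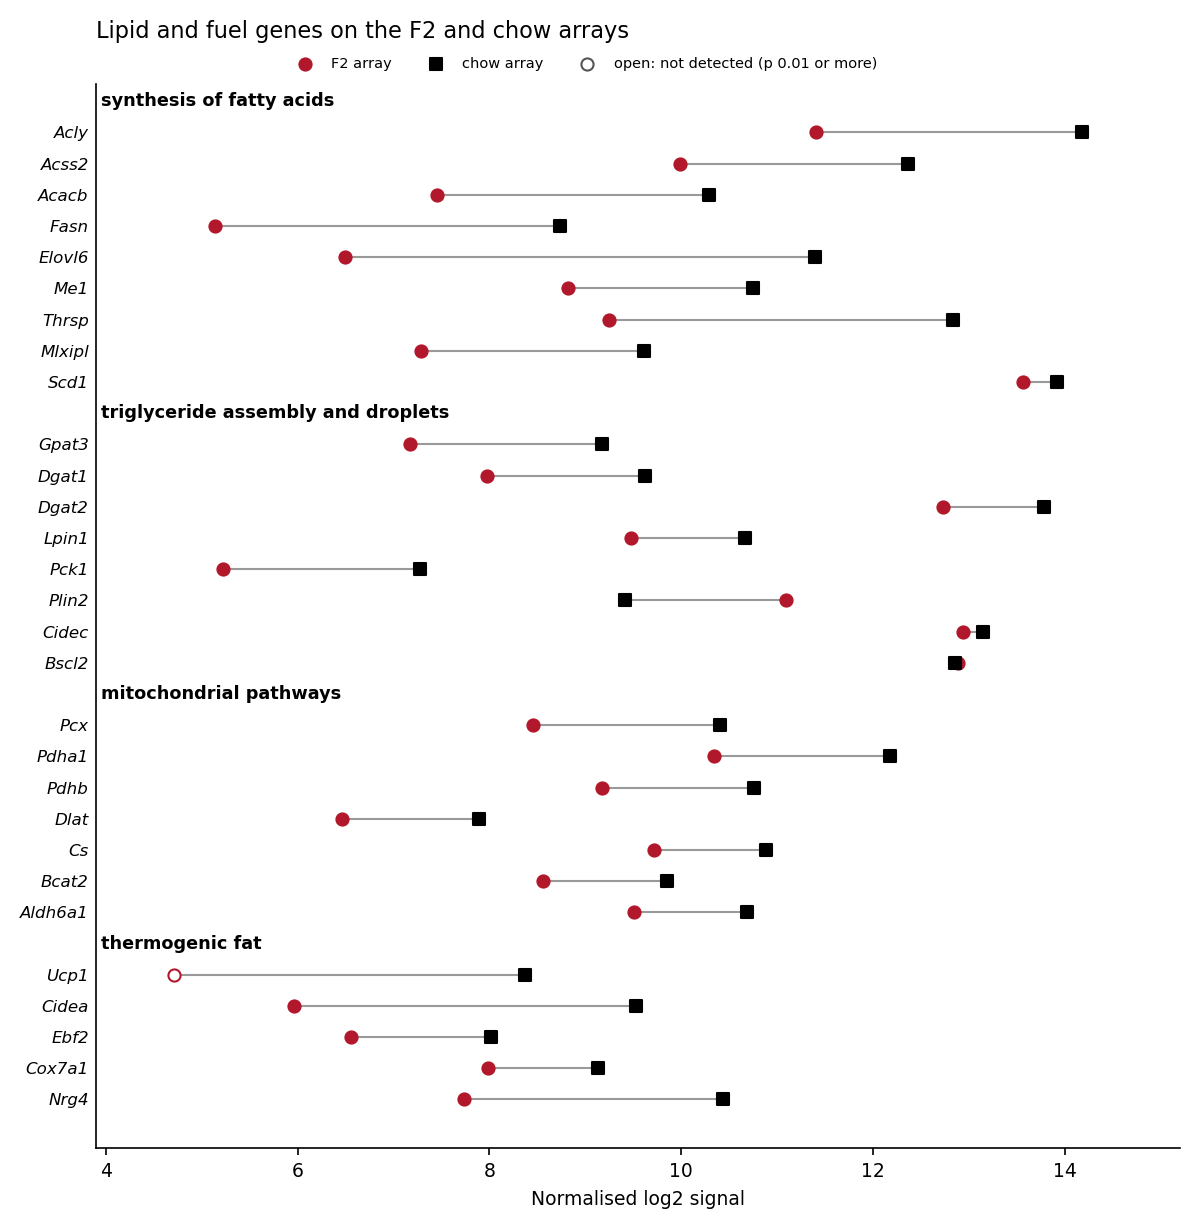
Normalised log2 signal of 29 lipid and fuel genes on the F2 array (red circles) and the chow array (black squares), joined by a line; open symbols were not detected. Every fatty acid synthesis gene shown lies to the left of its chow square, Scd1 by 0.35. Plin2 is the gene with the clear shift to the right. Of the 21 measured members of the synthesis list, 2 that are not shown were above 0.

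Some lipolysis genes were lower, while genes of uptake and oxidation were seldom 2-fold apart. Of 17 measured genes of lipolysis and its control (23 listed) 5 were lower and 1 was higher, with a median of -0.36. Over all genes 8.46% were lower, with a median of -0.10. The lower genes included receptors that restrain or tune lipolysis, Hcar2 for hydroxybutyrate (6.27 on F2, 7.84 on chow), Ptger3 for prostaglandin E2 (6.41 on F2, 7.64 on chow) and Ffar4 for long-chain fatty acids (7.48 on F2, 9.05 on chow), along with the carboxylesterases Ces1f (8.17 on F2, 10.38 on chow) and Ces1d (11.90 on F2, 13.50 on chow). Adcy3, an adenylyl cyclase, was 3.70-fold higher (7.17 on F2, 5.28 on chow). Hormone-sensitive lipase Lipe (8.93 on F2, 9.80 on chow) was under 2-fold, and monoglyceride lipase Mgll stood at 11.52 on F2 and 11.51 on chow. Uptake genes had a median of 0.04 over 17 measured of 21 listed, with 1 higher and 1 lower: the acyl-CoA ligase Slc27a2, 3.57-fold higher (6.94 on F2, 5.10 on chow), and the fatty acid binding protein Fabp3, 2.21-fold lower (6.88 on F2, 8.02 on chow). Of 25 measured oxidation genes (28 listed) 21 were below 0 and 2 were called lower, near the 8.46% of all genes. The 2 were the peroxisome gene Pex11a (8.93 on F2, 10.22 on chow) and the carnitine acetyltransferase Crat (8.87 on F2, 9.94 on chow). Averaged over probes Crat differed by -0.72, under 2-fold.

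Mitochondrial fuel pathways were lower by modest amounts across most of their members. The list for the citrate cycle and pyruvate entry had a median of -0.66, with 19 of 20 measured genes below 0 and 6 called lower (23 listed); its medians on the earlier arrays were -0.21 on F0 and -0.36 on F1. Pyruvate carboxylase Pcx, which feeds oxaloacetate to citrate export, was 3.87-fold lower (8.46 on F2, 10.41 on chow). The pyruvate dehydrogenase subunits Pdha1 (10.34 on F2, 12.18 on chow), Pdhb (9.17 on F2, 10.76 on chow) and Dlat (6.46 on F2, 7.89 on chow) and citrate synthase Cs (9.72 on F2, 10.89 on chow) were each at least 2-fold lower, whereas Idh1 in the cytosol was at 10.38 on F2 and 10.18 on chow. Breakdown of branched-chain amino acids, a carbon source for fat synthesis in adipocytes, had a median of -0.77 over 20 measured genes of 25 listed, against -0.08 on F0 and -0.27 on F1. Its mitochondrial transaminase Bcat2 was 2.44-fold lower (8.56 on F2, 9.85 on chow), the dehydrogenase subunit Bckdhb 2.09-fold lower (7.63 on F2, 8.70 on chow) and Aldh6a1 2.27-fold lower (9.51 on F2, 10.69 on chow). The cytosolic transaminase Bcat1 went the other way, 2.91-fold higher, by a difference of 1.54. Of 44 measured respiratory chain subunits (63 listed) 43 were below 0, with a median of -0.43 and the range from -1.13 to 0.11; only Cox7a1, Ndufb9 and Sdhb passed 2-fold, and Sdhb did not when averaged over probes (-0.83). Cytosolic ribosomal proteins, a list of 46 measured genes of 69, had a median of -0.03 and 0 genes at least 2-fold apart; that median was 0.11 where arrays were scaled by their median instead and 0.03 in the authors' value table.

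Thermogenic genes were mostly below chow, while most genes of insulin signalling were under 2-fold. Of 16 measured brown and beige markers (24 listed) 15 were below 0, with a median of -0.91 and 5 called lower. Uncoupling protein Ucp1, which makes brown fat produce heat, was not detected on F2 (4.71) and was at 8.37 on chow, at least 12.1-fold lower. Ebf2, a regulator of brown fat identity, was 2.74-fold lower (6.56 on F2, 8.02 on chow), and Prdm16, another such regulator, lay near the floor at 5.17 on F2 and 5.41 on chow. In the insulin list (24 measured of 32) 5 genes were lower and 2 higher, with a median of -0.22. The insulin receptor Insr was 3.27-fold lower (8.76 on F2, 10.47 on chow), the glucose transporter Slc2a4 3.32-fold lower (7.51 on F2, 9.24 on chow), Igf1r 2.85-fold lower (6.79 on F2, 8.30 on chow) and the kinase subunit Pik3r1 2.37-fold lower (10.39 on F2, 11.64 on chow). The probes of both receptors disagreed. Averaged over probes Insr differed by -0.95, under 2-fold, and Igf1r by -1.13, and the Igf1r probes detected on both arrays lay between -1.51 and 0.08. Hk3, a hexokinase of myeloid cells, was 9.53-fold higher (9.62 on F2, 6.36 on chow), and Ptpn1, a phosphatase that acts on the insulin receptor, 2.05-fold higher (7.95 on F2, 6.91 on chow). Isoforms split in the same way in glycolysis, where the muscle and adipocyte isoform Pfkm was 2.50-fold lower (8.33 on F2, 9.66 on chow) and the platelet isoform Pfkp 2.53-fold higher (8.68 on F2, 7.35 on chow), or 0.99 averaged over probes.

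Macrophage genes were higher throughout the measured list. Of 26 listed identity genes 23 had a probe and 20 were measured, and 20 of 20 were higher, from 1.30 to 3.79 with a median of 2.49; the summed linear signal of the 20 genes was 47522 on F2 and 7336 on chow. Their medians were 1.84 on F0, 2.23 on F1 and 2.49 on F2. Adgre1, which encodes a macrophage surface receptor, was 7.61-fold higher (11.05 on F2, 8.13 on chow), the lysozyme Lyz2 9.23-fold higher (13.48 on F2, 10.28 on chow) and the signalling adaptor Tyrobp 13.3-fold higher (11.16 on F2, 7.43 on chow). Csf1r, the receptor for the macrophage growth factor, was 2.74-fold higher (10.15 on F2, 8.70 on chow). In bulk tissue a change in the number of cells of a type and a change in RNA per cell cannot be told apart, and this holds for every cell type list here. Of the genes known from lipid-laden macrophages of obese fat, 11 of 22 measured were higher and 0 lower. Gpnmb was 23.1-fold higher (13.60 on F2, 9.07 on chow) and the lipid receptor Trem2 9.61-fold higher (11.80 on F2, 8.53 on chow), but Lgals1 (13.14 on F2, 13.13 on chow) and Fabp5 (7.56 on F2, 7.52 on chow), which other fat cells also express, were level.

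Genes of resident and alternatively activated macrophages went both ways. Over 23 measured genes of 24 listed, 4 were higher and 6 lower, with a median of -0.08. Arg1, an arginase, was at 8.26 on F2 and not detected on chow (4.52), at least 10.8-fold higher, with differences of 1.86 on F0, 2.89 on F1 and 3.74 on F2. The folate receptor Folr2 was 2.43-fold higher (10.42 on F2, 9.14 on chow). On the lower side stood Retnla at 9.66 on F2 and 11.37 on chow, the lectins Cd209d (4.94 on F2, 6.50 on chow) and Cd209f (8.64 on F2, 10.15 on chow), and the eosinophil attractant Ccl24, not detected on F2 (4.63) and at 6.11 on chow. The haemoglobin scavenger route was mixed with these: Hmox1, which breaks down haem, was 13.9-fold higher (9.01 on F2, 5.21 on chow), the phagosomal metal transporter Slc11a1 5.49-fold higher (12.44 on F2, 9.98 on chow) and the iron exporter Slc40a1 2.25-fold higher (10.04 on F2, 8.87 on chow), while transferrin receptor Tfrc was 2.11-fold lower (7.52 on F2, 8.60 on chow), or -0.97 averaged over probes.

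Lysosome and cholesterol export genes were higher alongside. Of 41 measured lysosome and phagosome genes (49 listed) 19 were higher and 0 lower, with a median of 0.91. The proteases Ctsk (12.23 on F2, 9.34 on chow), Ctss (8.82 on F2, 5.47 on chow) and Lgmn (12.71 on F2, 10.18 on chow) were 7.41-fold, 10.2-fold and 5.79-fold higher, while Lamp2 was at 12.21 on F2 and 12.18 on chow and the glycogen hydrolase Gaa at 9.40 on F2 and 9.48 on chow. The acid lipase Lipa, which frees fatty acids and cholesterol from engulfed lipid, was 3.91-fold higher (11.85 on F2, 9.89 on chow), the ester hydrolase Nceh1 5.33-fold higher (11.33 on F2, 8.92 on chow), and the exporter Abcg1 3.38-fold higher (8.04 on F2, 6.28 on chow). In that efflux list 6 of 12 measured genes were higher and 0 lower (18 listed). Genes of cholesterol synthesis stood in contrast: of 18 measured (25 listed) none reached 2-fold in either direction, with values from -0.58 for Fdps to 0.83 for Insig1.

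Chemokines, receptors and innate sensors were mostly on the higher side. Ccl4 (9.22 on F2, 5.53 on chow) and Ccl3 (8.29 on F2, 4.89 on chow), attractants made by activated macrophages, were 12.9-fold and 10.5-fold higher, and Ccl2, the monocyte attractant, was at 6.23 on F2 and not detected on chow (4.35), at least 2.65-fold higher. Cxcl12, a stromal chemokine, was 2.84-fold lower by its brightest probe (8.84 on F2, 10.35 on chow), but its 3 probes lay between -1.51 and 0.61 and averaged -0.17, under 2-fold. Over the 27 measured chemokines of 34 listed, 8 were higher and 5 lower. Of 30 measured Toll-like receptors and adaptors (36 listed) 15 were higher and 0 lower. Tlr13, which senses bacterial ribosomal RNA in mice, was 11.6-fold higher (9.18 on F2, 5.64 on chow) and Tlr7 4.60-fold higher (8.37 on F2, 6.17 on chow), whereas Tlr4, the endotoxin receptor, was at 7.60 on F2 and 7.54 on chow. In the complement list (29 measured of 39) 12 were higher and 2 lower. The C1q chains C1qa (10.90 on F2, 8.99 on chow), C1qb (12.98 on F2, 10.87 on chow) and C1qc (12.76 on F2, 10.70 on chow), which macrophages make, were 3.75-fold to 4.31-fold higher, and C2 (10.29 on F2, 12.07 on chow) and the lectin pathway protease Masp1 (5.86 on F2, 8.47 on chow) were 3.41-fold and 6.12-fold lower. Tnf was at 5.74 on F2 and not detected on chow (4.64), which bounds it at 1.89-fold. The probe of Il6 was detected on neither array. Of 10 measured respiratory burst genes 5 were higher, with the oxidase subunits Ncf4 7.11-fold (9.34 on F2, 6.51 on chow) and Cyba 5.60-fold (12.39 on F2, 9.90 on chow).

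Antigen presentation genes were higher on F2, with the DO chains of B cells at the top. MHC class II molecules carry peptides to helper T cells; the DM proteins load the peptide, and the DO proteins, H2-Oa and H2-Ob, restrain DM in B cells. Of 26 measured genes of the class II and dendritic cell list (29 listed) 20 were higher and 0 lower, with a median of 1.45. H2-Ob was at 9.13 on F2 and 5.14 on chow, 15.8-fold higher, and H2-Oa at 9.26 on F2 and 5.58 on chow, 12.8-fold higher. H2-Ob had differences from chow of 0.18 on F0, -0.02 on F1 and 3.98 on F2, and H2-Oa of 0.06 on F0, 0.26 on F1 and 3.68 on F2, so both were near chow on the other high fat arrays. The loading chains H2-DMb1 (10.35 on F2, 8.26 on chow) and H2-DMb2 (10.19 on F2, 7.45 on chow) were 4.23-fold and 6.69-fold higher, and the peptide-presenting chains H2-Aa (11.47 on F2, 10.02 on chow) and H2-Eb1 (12.61 on F2, 11.31 on chow) differed by 1.45 and 1.30. Ciita, the master regulator of class II genes, was 5.79-fold higher (8.68 on F2, 6.15 on chow). Genes of dendritic cells themselves were split. Cd83, found on mature dendritic cells and activated B cells, was 9.82-fold higher (9.35 on F2, 6.05 on chow). Among those nearest to no difference were Clec9a at 5.58 on F2 and 5.40 on chow, Zbtb46 at 5.05 on F2 and 5.60 on chow and Siglech, of plasmacytoid cells, at 5.61 on F2 and 6.36 on chow.

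Promoters of these class II genes are shown because the genes were higher together and share a known element, the Y box, an inverted CCAAT box bound by NF-Y near the sites where the Ciita protein is recruited. RefSeq promoter windows of build GRCm38.p6, from 250 bases before to 50 bases after each annotated start, were searched on both strands for GATTGG. The letters were in a window of 8 of the 8 measured H2 class II genes that the table holds, out of 9 measured, and of 18.2% of all 27025 genes in the table. The longer form CTGATTGG, which contains GATTGG, was in 4 of these 8 genes and 4.70% of all genes. A match is a description of the letters, not a bound site. The stretches below are 5′ to 3′ on the strand of the gene, with GATTGG or its reverse complement in capitals. The genes printed were chosen after their values were seen.
H2-Ob, chr17:34238802-34238897, plus strand: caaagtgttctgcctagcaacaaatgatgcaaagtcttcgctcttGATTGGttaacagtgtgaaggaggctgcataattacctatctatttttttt
H2-Oa, chr17:34092290-34092385, plus strand: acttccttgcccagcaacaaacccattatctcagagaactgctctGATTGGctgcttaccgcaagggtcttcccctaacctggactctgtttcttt
H2-DMb2, chr17:34145113-34145208, plus strand: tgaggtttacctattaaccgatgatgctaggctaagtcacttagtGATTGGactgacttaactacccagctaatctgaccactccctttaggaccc
H2-DMb1, chr17:34153084-34153179, plus strand: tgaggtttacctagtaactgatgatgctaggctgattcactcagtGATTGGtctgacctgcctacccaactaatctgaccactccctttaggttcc
H2-Aa, chr17:34287822-34287917, minus strand: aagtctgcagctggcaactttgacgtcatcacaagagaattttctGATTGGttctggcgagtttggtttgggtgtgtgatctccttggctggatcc
H2-Eb1, chr17:34305787-34305882, plus strand: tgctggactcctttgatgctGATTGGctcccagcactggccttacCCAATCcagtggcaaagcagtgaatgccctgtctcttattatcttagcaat
The windows of H2-DMb1 and H2-DMb2 share most of their letters around the box, and the probes may not separate these closely alike genes.

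Class I presentation was also higher, and so were some interferon-stimulated genes. Of 19 measured class I and immunoproteasome genes (25 listed) 9 were higher and 0 lower, with a median of 0.99. Ubd, a ubiquitin-like protein of inflamed tissue, was 30.0-fold higher (11.62 on F2, 6.71 on chow), with differences from chow of 5.45 on F0, 5.21 on F1 and 4.90 on F2. The immunoproteasome subunits Psmb8 (11.21 on F2, 9.27 on chow) and Psmb9 (9.94 on F2, 8.78 on chow) and the peptide transporter Tap1 (7.53 on F2, 6.25 on chow) were 3.85-fold, 2.24-fold and 2.43-fold higher. B2m, the chain shared by class I molecules, was at 13.88 on F2 and 13.74 on chow. Of 40 measured interferon-stimulated genes (55 listed) 7 were higher and 0 lower, with a median of 0.35. Over all genes 9.59% were higher and 8.46% lower, with a median of -0.10. The higher ones included Irf5 (9.14 on F2, 7.07 on chow), Irf8 (8.31 on F2, 6.64 on chow) and Oasl1 (6.98 on F2, 5.14 on chow), and the antiviral genes Oas1g (9.06 on F2, 7.64 on chow), Bst2 (8.49 on F2, 7.16 on chow) and Samhd1 (9.60 on F2, 8.33 on chow). Nearest to no difference were other antiviral genes, Ifit2 (6.94 on F2, 6.83 on chow), Usp18 (7.82 on F2, 7.75 on chow) and Oasl2 (8.84 on F2, 8.83 on chow).

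B cell genes had the highest median of the lists with more than 2 measured genes, 3.05, or 2.94 with undetected chow signals at their bound. Of 37 listed genes 34 had a probe and 30 were measured, 11 of them on F2 alone; 26 were higher and 0 lower, and their summed linear signal was 15935 on F2 and 2239 on chow. The list median was 0.36 on F0 and 0.50 on F1. Receptors of mature B cells were prominent. The low affinity IgE receptor Fcer2a was 11.4-fold higher (8.38 on F2, 4.86 on chow), and the BAFF receptor Tnfrsf13c, which sustains mature B cells, was at 8.31 on F2 and not detected on chow (4.52), at least 11.2-fold higher. Fcrla, an Fc receptor-like protein inside B cells, was 14.3-fold higher (9.51 on F2, 5.67 on chow), and the kinase Btk, which myeloid cells share, 10.9-fold higher (9.48 on F2, 6.03 on chow). The follicle-homing receptor Cxcr5 was at 7.63 on F2 and not detected on chow (4.72), at least 7.03-fold higher, and Ccr6, of B cells and some T cells, at 8.76 on F2 and not detected on chow (4.45), at least 15.3-fold higher. Cxcr5 and Ccr6 were near chow on the other high fat arrays, with Cxcr5 differences of 0.03 on F0 and -0.22 on F1, and Ccr6 differences of 0.55 on F0 and 0.60 on F1. Of the defining markers, Cd79b, a signalling chain of the B cell receptor, was 26.9-fold higher (10.99 on F2, 6.24 on chow), and Ms4a1, which encodes CD20, was at 5.91 on F2 and not detected on chow (4.41), at least 2.12-fold higher, and Cd79a had no probe under a single symbol. Ebf1, which adipocyte progenitors share with B cells, was level (7.36 on F2, 7.65 on chow).

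Plasma cell genes were higher in part, and T cell genes to a smaller degree than B cell genes. In the plasma cell and immunoglobulin list 8 of 14 measured genes (32 listed) were higher and 0 lower. Pou2af1, a coactivator of B cells and plasma cells, was 9.13-fold higher (8.92 on F2, 5.73 on chow) and Ighg1, an immunoglobulin heavy chain, 3.55-fold higher (7.11 on F2, 5.29 on chow). Xbp1, needed for secretion in plasma cells but used in other cells too, was at 11.68 on F2 and 11.95 on chow, and Irf4 was at 7.50 on F2 and 8.26 on chow. Of 28 measured T cell genes (46 listed) 19 were higher and 0 lower, with a median of 1.66, or 1.43 at the bound, and a summed signal of 9646 on F2 and 3857 on chow. The receptor chains Cd3d (9.54 on F2, 6.13 on chow) and Cd3g (9.16 on F2, 6.58 on chow), the kinase Zap70 (8.18 on F2, 5.55 on chow) and the T cell transcription factor Bcl11b (8.42 on F2, 5.29 on chow) were higher, the last 8.79-fold. The probes of Cd8b1, a chain of the CD8 coreceptor, disagreed: the brightest read 10.50 on F2 and 10.64 on chow, while both-array probes lay between -0.14 and 4.45 and the average was 2.28. Gata3 (5.54 on F2, 5.59 on chow) and Foxp3, which defines regulatory T cells (9.08 on F2, 8.47 on chow), were under 2-fold. Of the cytotoxic lymphocyte genes, Nkg7 was 7.99-fold higher (8.82 on F2, 5.82 on chow) and perforin (Prf1) under 2-fold (8.91 on F2, 8.01 on chow). Genes of lymphocyte movement and proximal signalling were higher in 29 of 36 measured (41 listed), among them the GTPase Rac2 (9.15 on F2, 5.87 on chow), the phosphatase Ptpn6 (10.49 on F2, 7.57 on chow) and Ptprcap (8.02 on F2, 4.87 on chow), which binds CD45. Ptprcap had differences of -0.07 on F0 and -0.07 on F1.

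**Figure D3:**
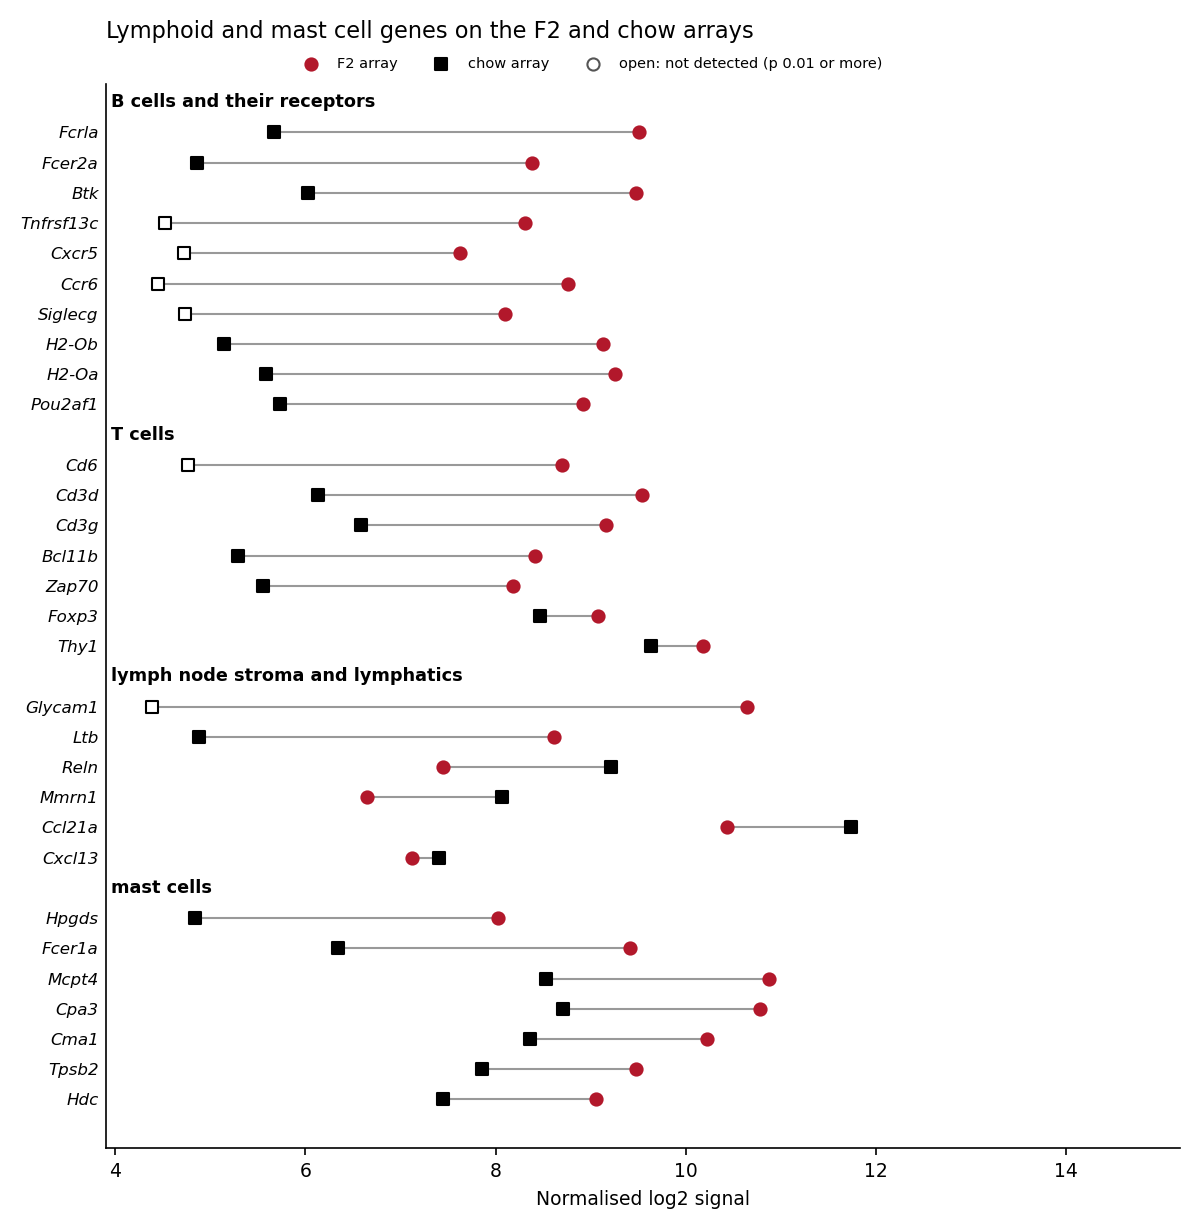
Normalised log2 signal of 30 lymphoid and mast cell genes on the F2 array (red circles) and the chow array (black squares); open squares were not detected on chow. Of the genes shown, those of B cells, most of T cells and those of mast cells lie to the right on F2. Reln, Mmrn1 and Ccl21a of lymphatic vessels lie to the left. Gata2 of the mast cell list, which was lower, is not shown.

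Lymph node stroma gave a divided picture beside these lymphocyte genes. Of 19 measured genes (27 listed) 3 were higher and 6 lower, with a median of -0.34. The higher ones were Glycam1, a mucin of high endothelial venules (10.65 on F2, not detected at 4.38 on chow), Ccl19, a chemokine of T cell zones (9.62 on F2, 5.96 on chow), and lymphotoxin beta (Ltb, 8.62 on F2, 4.88 on chow), which lymphocytes make. The lymphatic endothelial genes Reln (7.45 on F2, 9.21 on chow) and Mmrn1 (6.65 on F2, 8.07 on chow) were lower. Reln had differences of -4.74 on F0, -4.01 on F1 and -1.77 on F2, so F2 was the high fat array nearest to chow. Cxcl13, which follicle stroma makes to attract B cells, was level at 7.12 on F2 and 7.41 on chow, and Madcam1, of mucosal venules, was detected on neither array. The Ccl21a probe read 10.44 on F2 and 11.74 on chow, with differences of -6.34 on F0, -5.49 on F1 and -1.30 on F2, and the Ccl21c probe behaved alike (-6.25 on F0, -5.24 on F1 and -1.18 on F2); these genes are near-identical copies and are not separated. The part that lymph node tissue in a pool has in the lymphocyte differences was not tested.

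Mast cell genes were higher on F2. Of 13 measured genes (15 listed) 8 were higher and 1 lower, with a summed signal of 7756 on F2 and 2566 on chow, and list medians of -0.97 on F0, 0.07 on F1 and 1.60 on F2. The proteases stored in mast cell granules were higher together: Mcpt4 was at 10.88 on F2 and 8.53 on chow, Cpa3 at 10.78 on F2 and 8.71 on chow, and Cma1 at 10.22 on F2 and 8.36 on chow. The tryptase Tpsb2 was 3.08-fold higher (9.48 on F2, 7.86 on chow). Mcpt4 had differences of -1.30 on F0, 0.48 on F1 and 2.35 on F2, and Cpa3 of -1.50 on F0, 0.15 on F1 and 2.07 on F2, so both lay below chow on F0 and above it on F2. The IgE receptor chain Fcer1a was 8.39-fold higher (9.41 on F2, 6.34 on chow), and Hdc, which makes histamine, 3.04-fold higher (9.06 on F2, 7.45 on chow). The transcription factor Gata2, also used by progenitors and endothelium, was 2.50-fold lower (7.81 on F2, 9.13 on chow), and Kit was at 8.06 on F2 and 7.63 on chow. Of 11 measured neutrophil and eosinophil genes (21 listed) 2 were higher and 1 lower: S100a8 was 6.84-fold higher (10.14 on F2, 7.36 on chow), its partner S100a9 under 2-fold (6.38 on F2, 5.95 on chow), and Mmp9 3.64-fold lower (5.51 on F2, 7.37 on chow). Globin genes, the most abundant of blood, were close: Hbb-bs read 14.68 on F2 and 14.33 on chow and Hba-a1 14.38 on F2 and 14.10 on chow.

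Transcripts of other organs were among the largest differences. Of 50 listed hepatocyte genes 45 had a probe and 38 were measured, 23 of them on F2 alone; 30 were higher and 4 lower, with a median of 2.44 (2.22 at the bound) and a summed signal of 45389 on F2 and 34598 on chow. The list medians were -0.03 on F0, 1.61 on F1 and 2.44 on F2. Apoa1, the main protein of high density lipoprotein, was at 10.78 on F2 and not detected on chow (4.70), at least 62.0-fold higher. Its partner Apoa2 was 109.9-fold higher (11.61 on F2, 4.83 on chow). The chow signal of Apoa2 lay next to the lowest detected on that array (4.82), so this fold depends on the floor. Mat1a, the liver form of methionine adenosyltransferase, was at 10.09 on F2 and not detected on chow (4.43), at least 38.6-fold higher, and fibrinogen alpha (Fga) was at 8.92 on F2 and not detected on chow (4.28), at least 17.2-fold higher. Both genes had differences near 0 on F0 (-0.15 for Mat1a, -0.06 for Fga) and large ones on F1 (4.00 for Mat1a, 3.58 for Fga). The albumin probe (Alb), the defining gene of hepatocytes, was detected on neither array. Mup2 (10.71 on F2, 11.99 on chow) and transferrin (Trf, 12.20 on F2, 13.24 on chow), which fat itself expresses, were lower. Acute phase genes behaved in part as hepatocyte genes do and in part not. C-reactive protein (Crp), of liver, was at 7.26 on F2 and not detected on chow (4.38), with differences of -0.13 on F0, 2.46 on F1 and 2.88 on F2, whereas haptoglobin (Hp), which fat cells also make, was 5.32-fold higher (14.07 on F2, 11.66 on chow), with differences of 2.67 on F0, 2.61 on F1 and 2.41 on F2. Orm1 was at 11.52 on F2 and 12.09 on chow.

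Pituitary hormones were read on the F2 array alone. Prl, prolactin, was at 11.04 on F2 and not detected on chow (4.29), at least 74.7-fold higher, and Gh, growth hormone, at 9.35 on F2 and not detected on chow (4.22). On the other high fat arrays Prl differed from chow by 0.05 on F0 and 0.11 on F1, and Gh by 0.14 on F0 and 0.12 on F1. The remaining 10 pituitary genes with a probe, Pomc, Tshb, Lhb, Fshb and Cga among them, were detected neither on F2 nor on chow. Of 22 pancreatic acinar genes with a probe only 4 were measured; the amylase gene Amy2a5 was 3.36-fold lower (10.48 on F2, 12.23 on chow), and the elastase Cela1 2.78-fold higher (9.31 on F2, 7.83 on chow). The source of the liver and pituitary transcripts was not tested.

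Muscle and mesothelial transcripts were lower. Of 31 measured skeletal muscle genes (38 listed) 20 were lower and 0 higher, 16 of the 31 being detected on chow alone; the median was -1.44 and the summed signal 5784 on F2 and 16402 on chow. Troponin Tnnc2 was not detected on F2 (4.50) and was at 9.17 on chow, at least 21.1-fold lower, and the calcium pump Atp2a1 was not detected on F2 (4.75) and was at 8.94 on chow. Acta1, the skeletal actin, did not follow (10.99 on F2, 10.31 on chow). Of 26 measured smooth muscle genes (30 listed) 20 were lower and 1 higher, with a summed signal of 26563 on F2 and 86413 on chow. The contractile genes Actg2 (10.51 on F2, 13.41 on chow), Myl9 (9.73 on F2, 12.56 on chow) and Tagln (7.65 on F2, 10.37 on chow) were 6.61-fold to 7.44-fold lower, whereas the pericyte genes Pdgfrb (6.14 on F2, 6.49 on chow) and Cspg4 (5.55 on F2, 5.28 on chow) were level. Mesothelial genes were lower in 17 of 22 measured (29 listed), with a summed signal of 7613 on F2 and 17986 on chow. The uroplakins Upk3b (8.98 on F2, 11.65 on chow) and Upk1b (7.15 on F2, 9.95 on chow) were 6.37-fold and 6.96-fold lower, and Msln was at 5.82 on F2 and 7.44 on chow. Slpi, a protease inhibitor of epithelia and macrophages, was the reverse of its list at 10.93 on F2 and 9.95 on chow, with differences of -1.69 on F0, -1.07 on F1 and 0.98 on F2. These 3 lists had medians against chow of -1.56, -1.65 and -2.06 on F0 and of -1.67, -1.67 and -1.71 on F1, in the order skeletal muscle, smooth muscle, mesothelium. They share the single chow array, so the same chow pool enters each value, and the part that muscle or mesothelium taken with the fat has in other differences was not tested.

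Some vessel genes were lower, and stromal progenitor genes were called about as often as all genes. Of 32 measured endothelial genes (37 listed) 9 were lower and 1 higher, and 25 were below 0; the median was -0.72, against -0.03 on F0 and -0.22 on F1. Vegfa, the main growth factor for vessels, was 3.93-fold lower (7.87 on F2, 9.85 on chow), with differences of -0.55 on F0, -1.09 on F1 and -1.97 on F2. Its receptor Flt1 (8.36 on F2, 9.63 on chow), the angiopoietin receptor Tek (7.24 on F2, 8.60 on chow) and the nitric oxide synthase Nos3 (7.69 on F2, 8.86 on chow) were 2.26-fold to 2.58-fold lower. The junction protein Cldn5 was level at 9.46 on both arrays, and the adhesion molecule Vcam1, which binds leukocytes, 3.15-fold higher (10.47 on F2, 8.81 on chow). Stromal progenitor genes had 3 lower and 0 higher of 31 measured, near the 8.46% of all genes that were lower. Dpt was level (10.51 on F2, 10.41 on chow), and pleiotrophin (Ptn), a heparin-binding growth factor, was 5.32-fold lower (8.15 on F2, 10.56 on chow). Dcn was under 2-fold by its brightest probe (13.49 on F2, 13.61 on chow). Its 4 probes detected on both arrays were all below 0, from -1.92 to -0.13, with an average of -0.72. Of 49 measured collagen and matrix genes (57 listed) 8 were lower and 3 higher, and the fibrillar collagen Col3a1 was at 8.65 on F2 and 8.53 on chow. Matrix proteases split. Mmp13 (7.26 on F2, not detected at 4.67 on chow), Mmp3 (10.28 on F2, 8.99 on chow) and the inhibitor Timp1 (a difference of 1.49) were higher, and the inhibitor Timp3 3.31-fold lower (9.58 on F2, 11.31 on chow). Mmp3 had differences of -0.40 on F0, 0.58 on F1 and 1.29 on F2. Among growth factors, where 12 of 41 measured were lower and 2 higher, Bmp4 (6.08 on F2, 8.44 on chow), Fgf1 (8.32 on F2, 10.05 on chow) and the receptor Fgfr2 (7.24 on F2, 9.89 on chow) were 5.11-fold, 3.30-fold and 6.28-fold lower, and Tgfb1 5.46-fold higher (8.89 on F2, 6.44 on chow).

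Mitosis genes were higher. Of 46 measured cell cycle genes (59 listed) 28 were higher and 0 lower, with a median of 1.44, or 1.16 at the bound, and medians of 0.88 on F0 and 1.24 on F1. Prc1, which bundles the spindle midzone, was 10.9-fold higher (9.14 on F2, 5.69 on chow), the centromere histone Cenpa 7.87-fold higher (10.39 on F2, 7.41 on chow) and Cdca8, of the chromosomal passenger complex, 9.46-fold higher (8.22 on F2, 4.98 on chow). The mitotic kinases Cdk1 (7.84 on F2, 5.46 on chow) and Plk1 (7.32 on F2, not detected at 4.79 on chow) were 5.22-fold and at least 5.66-fold higher. Genes that act outside mitosis were mixed. Of the replication helicase, Mcm5 (9.51 on F2, 7.52 on chow) and Mcm6 (8.27 on F2, 7.07 on chow) were 3.98-fold and 2.29-fold higher and Mcm4 was at 9.70 on F2 and 9.37 on chow; Mcm5 and Mcm6 were chosen after their values were seen. Cyclin Ccnd1 was at 10.27 on F2 and 9.88 on chow, and the cell cycle inhibitors Cdkn1c (10.21 on F2, 10.33 on chow) and Cdkn2c (8.61 on F2, 8.60 on chow) were level. Cdkn1a, which encodes p21, was however 4.86-fold higher (10.79 on F2, 8.51 on chow).

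Promoters of mitosis genes are shown because many carry the CHR, a short element near the start through which the DREAM and MuvB complexes time these genes to G2 and mitosis. The letters TTTGAA, searched on both strands of the same RefSeq windows, were in 18 of the 36 measured list members that the table holds and in 20.2% of all genes; CCAAT, often found upstream of a CHR, was in 26 of the 36 and 41.1% of all genes. Capitals mark TTTGAA in the stretches below.
Prc1, chr7:80294401-80294496, plus strand: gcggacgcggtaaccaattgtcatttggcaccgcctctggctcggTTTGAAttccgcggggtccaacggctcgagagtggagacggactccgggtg
Cdca8, chr4:124936868-124936949, minus strand: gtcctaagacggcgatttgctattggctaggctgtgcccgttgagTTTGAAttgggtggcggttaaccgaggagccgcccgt
Cenpa, chr5:30666857-30666935, plus strand: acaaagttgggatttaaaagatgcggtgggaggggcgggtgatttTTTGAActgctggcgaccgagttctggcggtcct
Cdk1, chr10:69352877-69352972, minus strand: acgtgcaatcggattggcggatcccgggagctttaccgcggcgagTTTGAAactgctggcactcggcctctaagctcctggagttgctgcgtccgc
In Prc1, Cdca8 and Cdk1 the letters CCAAT, or ATTGG on the other strand, stand upstream of the CHR within the stretch shown.

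Circadian clock genes were mostly lower on F2, with Arntl higher. In the clock, Clock and Arntl (BMAL1) bind E-boxes to drive Per, Cry, Nr1d1 and output genes such as Dbp, and the Nr1d and Ror receptors act on Arntl through ROR elements, so that Arntl and the E-box genes peak at opposite times of day. Of 17 measured genes (25 listed) 8 were lower and 1 was higher, with a median of -0.92. Dbp was 3.85-fold lower (9.67 on F2, 11.61 on chow), Per2 2.43-fold lower (8.21 on F2, 9.49 on chow), Ciart, a repressor in the loop, 2.32-fold lower (5.39 on F2, 6.61 on chow) and Per3 at least 2.67-fold lower (not detected at 4.47 on F2, 6.19 on chow). Arntl was the higher gene, at 6.20 on F2 and 5.09 on chow, 2.17-fold, while its partner Clock was level (9.12 on F2, 9.32 on chow). Without background correction Arntl (0.61), Ciart (-0.74) and Per3 (-0.88) kept their direction but were under 2-fold. Medians were -0.45 on F0 and -0.64 on F1, and Arntl differed from chow by 0.85 on F0, 0.68 on F1 and 1.12 on F2. The labels give no time of day at which tissue was taken, so time of collection and group cannot be told apart. The promoter of Ciart carries CACGTG, the E-box, and that of Arntl carries GTAGGTCA, the core of a ROR element; both are shown since these genes stood on opposite sides of chow. CACGTG was in 3 of 14 measured clock genes that the table holds (Per1, Tef and Ciart) and in 8.09% of all genes, and GTAGGTCA in Arntl alone of the 14 and in 0.71% of all genes. Capitals mark the element.
Ciart, chr3:95882222-95882317, minus strand: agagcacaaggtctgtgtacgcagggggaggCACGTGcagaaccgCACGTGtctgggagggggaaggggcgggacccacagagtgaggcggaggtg
Arntl, chr7:113207495-113207560, plus strand: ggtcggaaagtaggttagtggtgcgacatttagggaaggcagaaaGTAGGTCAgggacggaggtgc

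Stress, secretory and antioxidant genes differed gene by gene. In the stress list (34 measured of 40) 7 were higher and 3 lower: the stress-induced factor Atf3 was 6.98-fold higher (8.73 on F2, 5.93 on chow), Gadd45b 3.58-fold higher (7.74 on F2, 5.90 on chow) and Fos 2.67-fold higher (9.52 on F2, 8.10 on chow), while the heat shock gene Hspa1a was 2.85-fold lower (6.08 on F2, 7.59 on chow) and Ier3 3.14-fold lower (7.76 on F2, 9.41 on chow). The unfolded protein list (33 measured of 38) was centred on 0.04 with 4 higher and 1 lower, against 9.59% higher and 8.46% lower of all genes. Sdf2l1 was 3.61-fold higher (8.36 on F2, 6.51 on chow), asparagine synthetase Asns 2.83-fold lower (9.26 on F2, 10.76 on chow), and Pdia6 level (6.61 on F2, 6.63 on chow). Gsta4, a glutathione transferase that clears lipid aldehydes, was 11.6-fold lower (5.77 on F2, 9.30 on chow), and Gpx3, a secreted peroxidase, 3.07-fold lower (11.49 on F2, 13.11 on chow). Metallothionein Mt2 (7.14 on F2, 5.55 on chow) and Gclm (8.82 on F2, 7.64 on chow) were higher, and the NRF2 target Nqo1 lay level near the floor (5.39 on F2, 5.48 on chow).

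Hormone receptors, positional genes and imprinted genes were lower where they differed, with Mest the exception named above. Esr1, the oestrogen receptor alpha, was 8.32-fold lower (5.87 on F2, 8.93 on chow), and its targets Greb1 (7.23 on chow) and Pgr (5.82 on chow), the progesterone receptor, were not detected on F2 but were on chow, at least 5.52-fold and 2.08-fold lower. Esr1 had differences of -2.30 on F0, -3.16 on F1 and -3.06 on F2. Of 21 measured receptors and steroid enzymes (41 listed) 4 were lower and 0 higher; Vdr (5.06 on F2, 5.19 on chow) and Hsd11b1 (10.60 on F2, 10.65 on chow) were level. Hox genes, which record position along the body, were lower in 10 of 24 measured (41 listed) and higher in 0, with a median of -0.94, against -0.63 on F0 and -0.64 on F1. Hoxd10 was 5.21-fold lower (6.78 on F2, 9.16 on chow), Hoxa5 2.97-fold lower (7.61 on F2, 9.18 on chow) and Hoxc10 2.61-fold lower (6.70 on F2, 8.08 on chow), while Hoxb4 was under 2-fold (6.77 on F2, 7.27 on chow). Since Hox levels differ between fat depots in mice and the depot is not labelled, depot and diet cannot be told apart. Among imprinted genes (17 measured of 32) 4 were lower and 1 higher, with Grb10 (8.98 on F2, 10.51 on chow), Igf2 (7.60 on F2, 8.94 on chow) and Dlk1 (5.95 on F2, 7.14 on chow) 2.28-fold to 2.87-fold lower (Dlk1 only -0.73 averaged over probes) and Peg3 level (8.24 on F2, 8.05 on chow), although Peg3 differed from chow by 2.03 on F0 and 1.30 on F1. The methylation machinery, 32 measured genes of 42, had 2 higher and 0 lower. That is no more often than among all genes, where 9.59% were higher and 8.46% lower. The 2 were Uhrf1, which guides maintenance methylation at replication forks, 4.05-fold (8.14 on F2, 6.12 on chow), and Gadd45a 2.07-fold (8.64 on F2, 7.60 on chow). Dnmt1 was under 2-fold, with a difference of 0.73, and Dnmt3a was not detected on either array.

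Several further genes were far from chow. Tph2, the tryptophan hydroxylase of serotonin neurons, was at 11.33 on F2 and not detected on chow (4.48), at least 91.2-fold higher, with differences of 6.90 on F0, 7.23 on F1 and 6.85 on F2; Tph1, the form of other tissues, was at 5.20 on F2 and not detected on chow (4.49), a bound of 1.30-fold. Gch1, which makes the cofactor of these hydroxylases, was 4.53-fold higher (8.74 on F2, 6.56 on chow). Clec4d, a C-type lectin of myeloid cells, was 34.9-fold higher (10.38 on F2, 5.26 on chow). By its brightest probe the integrin Itgad was at least 24.3-fold higher (9.42 on F2, not detected at 4.24 on chow). Dpep2, a dipeptidase, was 26.4-fold higher by its brightest probe (10.31 on F2, 5.59 on chow). Averaged over detected probes the differences were smaller, 3.47 for Itgad and 3.17 for Dpep2, against 5.19 and 4.72. On the lower side, the acyl-CoA synthetase Acsm3 was at 5.38 on F2 and 9.62 on chow, the transcription factors Foxq1 (4.82 on F2, 8.32 on chow) and Msx1 (5.64 on F2, 8.78 on chow) 11.3-fold and 8.80-fold lower, and Nat8l, which makes N-acetylaspartate in fat and brain, 10.4-fold lower (6.40 on F2, 9.78 on chow). Nat8l had differences of -2.10 on F0, -2.70 on F1 and -3.38 on F2. The F2 signal of Foxq1 lay near the lowest detected on that array (4.77), so its fold depends on the floor. The relaxin receptor Rxfp1 was not detected on F2 (4.45) and was at 7.67 on chow, at least 7.47-fold lower. Transporters were split, 9 higher and 5 lower of 28 measured: the biotin and pantothenate carrier Slc5a6 was 7.28-fold lower (7.79 on F2, 10.65 on chow), the glycerol channel Aqp7 level (9.17 on F2, 8.93 on chow), and the sugar-phosphate carrier Slc37a2 of macrophages at least 18.2-fold higher (9.01 on F2, not detected at 4.67 on chow). Cyp2e1, a cytochrome abundant in fat and liver, was 6.94-fold lower (11.10 on F2, 13.89 on chow).

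**Figure D4:**
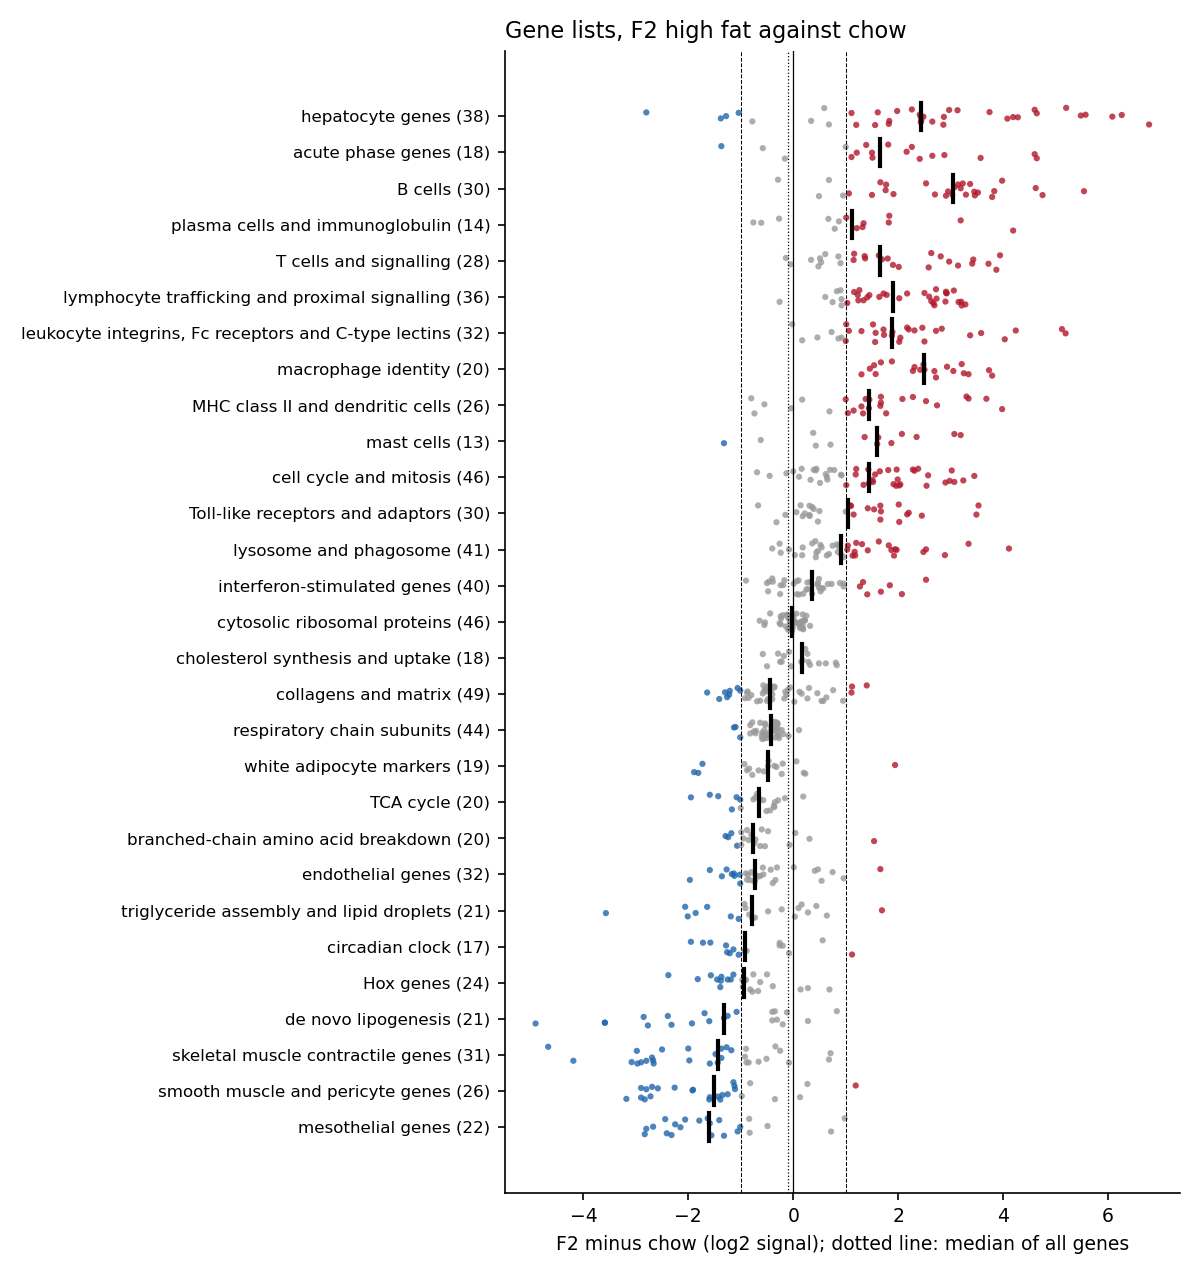
F2 minus chow (log2) for the measured members of 29 gene lists, with the number measured in brackets; red points are at least 2-fold higher, blue points at least 2-fold lower, and black bars are list medians. Hepatocyte and leukocyte lists sit to the right of the all-gene median of -0.10, ribosomal proteins on it, and lipogenesis, muscle and mesothelial lists to the left.

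Set side by side, the lists differed in how their values stood on the 3 high fat arrays. Macrophage, lipogenesis and mesothelial medians were of similar size on each high fat array, at 1.84, -1.10 and -2.06 on F0, 2.23, -1.16 and -1.71 on F1, and 2.49, -1.32 and -1.61 on F2. For hepatocyte genes the medians were near chow on F0 (-0.03) and well above it on F1 (1.61) and F2 (2.44). For B cells, T cells and mast cells the F0 and F1 medians lay between -0.97 and 0.50, and the F2 medians between 1.60 and 3.05. All of these values were taken against the same chow array and each rests on 1 pool, so they describe 4 pools and do not test a trend over generations.

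**Figure D5:**
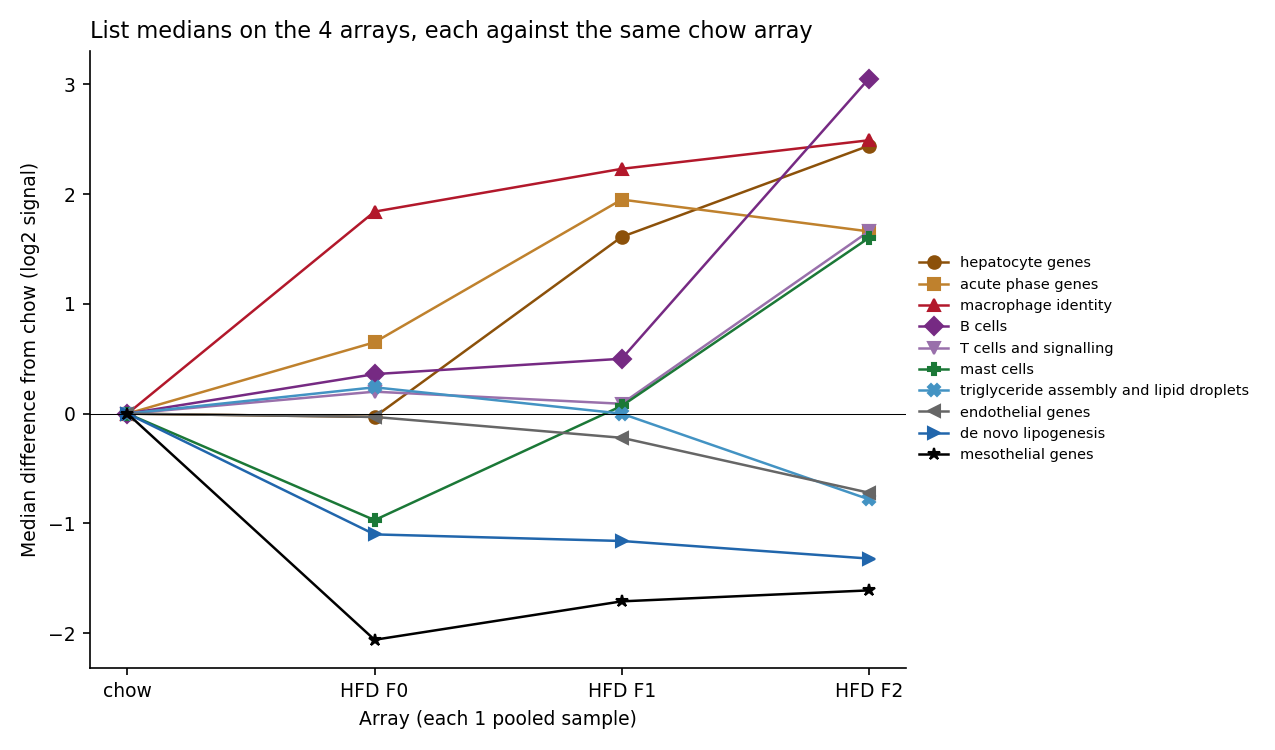
Median difference from chow (log2) of 10 gene lists on the F0, F1 and F2 high fat arrays, with chow at 0 by construction; each array is 1 pooled sample and lines only join values of a list. B cell, T cell and mast cell medians stand above chow by 1.60 or more on F2 alone, and macrophage and lipogenesis medians are offset on each high fat array.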

How the data were processed

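RNA of white adipose tissue was read on Illumina mouse bead arrays; per the submitters' processing notes GenomeStudio 2010.2 was used. The deposited table holds an intensity on a linear scale, with a mean of 274.4 on each array, a mean common to the deposited arrays, and a detection p-value per probe and array against 936 negative control bead types. The authors' value table, a background-subtracted intensity with column medians of 6.24 for F2 and 6.17 for chow, unlogged and uncentred, served as an alternative.

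Background was corrected with nec in limma 3.58.1 (R 4.3.3), with an offset of 16, then all 4 arrays were quantile normalised and log2 taken. Of the 45281 probes, 34885 had 1 gene symbol, 18 several and 10378 none. By gene ID 34807 probes were matched to a current symbol. The brightest detected probe stood for a gene. Lists and tables were made in Python 3.11.15. On simulated arrays made from the chow array, with 4-fold changes planted and little added noise, the size rule was tested. That run does not gauge 2-fold calls between separate pools. The naming rule covers the 15 largest each way among genes read on both arrays, the 8 largest bounds each way and 18 genes throughout. From each list it takes up to 8 members by size and 4 nearest 0. The rule holds 727 genes. The text gives only a part of these, chosen with their values known, and adds a few others. Cell type markers came from a fixed list. The genes, the 70 lists and the naming rule were chosen with earlier results of these data known, so no list is independent support. The number of arrays limits the precision.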

Additional observations from a re-analysis of the deposited data

How the results depend on the processing

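The 2002 genes at least 2-fold apart became 1241 without background correction (699 higher, 542 lower) and 1309 with an offset of 50 (735 higher, 574 lower), since both raise low signals and shrink differences. A size of 1.5-fold gave 4094 (1890 higher, 2204 lower) and 4-fold gave 544 (377 higher, 167 lower), so the higher share was 53.1% at 2-fold, 46.2% at 1.5-fold and 69.3% at 4-fold. The counts were within 1.5 times the reported ones under 6 other planned settings: 2007 with median scaling, 2002 with F2 and chow normalised alone, 2401 with the authors' value table (1165 higher, 1236 lower, 48.5% higher), 2002 at detection p under 0.05, 1552 detected on both arrays and 1839 with probes averaged. The looser detection p adds only probes near the detection floor, which the offset keeps from being 2-fold apart. Its unchanged count was therefore fixed in advance and lends no support. Chosen after seeing the data, setting undetected signals at their bound left 1873 (982 higher, 891 lower). The all-gene median stayed between -0.12 and -0.05.

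Of the genes under the naming rule, not all of which the text gives, 398 were at least 2-fold apart. Without background correction 348 of the 398 remained so, and 0 turned sign under any of 6 settings. Averaging over detected probes ended 19 of these calls, brought 5 other genes under the rule to 2-fold, and moved 44 more by over 1.5-fold. Among the 44, the difference went from 3.52 to 2.26 for Fcer2a, 3.24 to 2.39 for Cdca8 and -2.61 to -1.60 for Masp1. It went from 4.32 to 3.58 for Ccr6 and 1.66 to 1.01 for Vcam1. Other folds given above that shrank were those of Lyz2 (3.21 to 2.22), Gch1 (2.18 to 1.37) and Gadd45b (1.84 to 1.14). On the lower side Fgfr2 went from -2.65 to -1.75, Timp3 from -1.73 to -1.10 and Amy2a5 from -1.75 to -1.03. Some differences grew instead, such as that of Slc11a1, from 2.46 to 3.40. Leaving out background correction ended 50, among them Bckdhb, Ccl2, Ccl24, Cd209d, Fabp3, Gadd45a, Lcn2, Ndufb9, Pgr, Ptger3, Ptpn1, Tap1 and Tnf. The 38 lists with a median of at least 0.5 either way kept their sign throughout; of the other 32 lists 9 turned under some setting, ribosomal proteins and housekeeping genes among them. The B cell median lay between 2.21 without background correction and 3.55 with the authors' table, and the T cell median between 0.94 without background correction and 2.63 for genes detected on both arrays. Gsn was -0.61 by its brightest probe and 0.24 averaged over probes. No paired analysis was possible because each group is 1 array. Signals near the detection floor and the single chow pool that enters every difference limit these values.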
